A study of Mus musculus with 24 samples.

Results

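The genes described here encode pyruvate dehydrogenase (PDH), the kinases and the phosphatase that set its activity, and the carriers that bring pyruvate to it. They were chosen by name, as the rows of the count table whose Ensembl identifier maps to 1 of 10 listed mouse symbols. Of these, 9 were among the 12615 genes of the table, and all 9 passed the filter on low counts. They are Pdk1, Pdk2, Pdk4, Pdp2, Pdha1, Pdhb, Dlat, Mpc1 and Mpc2, while Pdk3 is not analysed here.

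RNA from interscapular brown adipose tissue (BAT) was measured in 24 mice, 6 for each combination of labelled genotype and temperature. All 24 mice carried floxed alleles of both TBLR1 and TBL1 (TBLR1 fl/fl;TBL1 fl/fl), the genes of a transcriptional cofactor pair, on a C57BL6/N background, and all received tamoxifen, with the temperature protocol starting 3 weeks after the last injection. BATdKO mice also carried Ucp1CreERT2, a tamoxifen-dependent Cre recombinase driven by the Ucp1 promoter, so that deletion was directed to cells that express Ucp1 and not to the other cells of the tissue, and Cre- controls lacked it. Mice raised at 22°C were either moved directly to 30°C for 4 days or cooled by 1 day each at 18°C, 16°C and 12°C to 8°C, where they stayed 6 days according to the labels. For the sequenced mice the study's text gives fewer days in the cold, and a figure legend names males where the labels name females. The study's methods mention cohorts of both sexes, and its legend on serum values gives more days at 8°C than the labels. The labels give the age at tamoxifen as 5 years, where the methods give it in weeks. The cold groups therefore differed from the warm groups in temperature, in the stepwise cooling and in the number of days. Their library numbers also form a separate block from those of the warm groups. What these blocks stand for is not given, and it cannot be told apart from temperature.

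Depth was 0.700 to 11.5 M counts a library (median 6.64 M), and the shallowest was Cre- 30°C m4, where m1 to m6 number the mice within a group. The deleted genes went against the labels. Tbl1xr1, which encodes TBLR1, was measured at 18.2 to 24.6 counts per 1 M counts (CPM) in Cre- mice and at 33.8 to 44.3 CPM in BATdKO mice at 8°C, and was higher under the BATdKO label (log2 fold change 0.93 ± 0.17 SE, adjusted p = 0.00348 by edgeR's quasi-likelihood test). Tbl1x was also higher (0.39 ± 0.10, adjusted p = 0.0633). Where the 3′ tags lie relative to the deleted exons was not examined, so whether these counts can test the deletion is not known. The cause of the higher values was not tested. "Cre-" and "BATdKO" below therefore mean only the label of the library. At 30°C, Cre- m6 and BATdKO m6 stood apart from their groups, with Ucp1 at 548 CPM and 84.7 CPM. Tbl1xr1 was at 38.6 CPM in Cre- m6 (16.45 to 24.6 in the other Cre- mice). In BATdKO m6 it was at 17.0 CPM (29.8 to 42.0 in the others). Tbl1x was at 53.5 CPM in Cre- m6 (31.4 to 45.55 in the others) and at 39.65 CPM in BATdKO m6 (53.4 to 59.9). For both genes each m6 library thus lay within the range of the other label, and an exchange of labels was not tested. The 12 brown adipocyte markers made up 0.466% of the counts of Cre- m6 and 0.0899 to 0.285% of those of the other Cre- mice at 30°C. In BATdKO m6 they made up 0.151%, and in the other BATdKO mice at 30°C 0.261 to 0.458%. Of these 12, Fabp4, Adipoq and Plin1 also mark adipocytes in general. Fabp4 had the highest median of the list over all mice (1203 CPM, beside 758 CPM for Ucp1), so the sum is not specific to brown adipocytes. Calls that changed without both m6 libraries are given beside the results they touch. Because these libraries were set apart by Ucp1, the deleted genes and the brown adipocyte markers, such calls of those genes are not independent of that choice. Hepatocyte transcripts were present throughout: all 6 listed hepatocyte markers were measured, Alb at 5686 to 14390 CPM, and their sum was 2.44 to 3.84% of the counts in every library. None of these 6 passed the threshold in any comparison. The lowest hepatocyte sum was above the highest brown adipocyte marker sum (0.546%), and the lowest Alb value was above the highest Ucp1 value (2076 CPM). Several of the genes described here are also expressed in liver. The part of hepatocyte RNA in their levels, ranks and shares was not tested.

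PDH is the mitochondrial enzyme complex that turns pyruvate into acetyl-CoA, and so links glycolysis to the citric acid cycle and to the synthesis of fatty acids. Its E1 subunits (PDHA1 and PDHB) decarboxylate pyruvate and its E2 subunit (DLAT) forms the acetyl-CoA. Pyruvate dehydrogenase kinases phosphorylate PDHA1 and switch the complex off, and PDH phosphatases switch it on again. Pyruvate reaches the complex through the mitochondrial pyruvate carrier, a heterodimer of MPC1 and MPC2. In BAT, cold raises both the uptake of glucose and the oxidation of fatty acids, and the kinase PDK4 is known as a gene that fatty acids and fasting induce.

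The sequences of the 250 bases before the transcription start are shown for the 5 members on which the results below turn. These are both kinases that passed the threshold in a comparison (Pdk1 and Pdk4), and the 3 genes that were higher at 8°C under both labels (Pdp2, Pdhb and Mpc2). They are from RefSeq on GRCm38.p6, written 5′ to 3′ on the strand of the gene, and capitals mark the letters ACGTG or its reverse complement.
Pdk1, chr2:71872974-71873223, plus strand: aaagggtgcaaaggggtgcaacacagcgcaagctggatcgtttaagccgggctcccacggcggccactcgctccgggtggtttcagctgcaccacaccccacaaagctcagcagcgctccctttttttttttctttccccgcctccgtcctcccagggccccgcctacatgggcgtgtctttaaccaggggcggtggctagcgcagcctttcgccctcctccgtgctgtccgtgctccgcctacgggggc
Pdk4, chr6:5496279-5496528, minus strand: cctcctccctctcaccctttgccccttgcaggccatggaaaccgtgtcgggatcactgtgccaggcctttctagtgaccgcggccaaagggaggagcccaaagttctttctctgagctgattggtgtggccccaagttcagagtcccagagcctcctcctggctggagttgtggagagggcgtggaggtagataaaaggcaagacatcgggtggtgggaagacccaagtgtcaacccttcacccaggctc
Pdp2, chr8:104591222-104591471, plus strand: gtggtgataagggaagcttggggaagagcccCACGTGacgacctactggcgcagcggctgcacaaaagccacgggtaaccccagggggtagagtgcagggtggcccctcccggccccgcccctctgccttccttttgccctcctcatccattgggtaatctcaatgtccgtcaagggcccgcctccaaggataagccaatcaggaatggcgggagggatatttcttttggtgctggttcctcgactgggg
Pdhb, chr14:8172993-8173242, minus strand: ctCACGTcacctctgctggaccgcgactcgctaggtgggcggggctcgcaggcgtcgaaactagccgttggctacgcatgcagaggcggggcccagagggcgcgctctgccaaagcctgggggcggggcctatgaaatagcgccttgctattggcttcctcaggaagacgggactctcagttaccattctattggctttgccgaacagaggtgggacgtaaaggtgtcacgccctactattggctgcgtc
Mpc2, chr1:165461010-165461259, plus strand: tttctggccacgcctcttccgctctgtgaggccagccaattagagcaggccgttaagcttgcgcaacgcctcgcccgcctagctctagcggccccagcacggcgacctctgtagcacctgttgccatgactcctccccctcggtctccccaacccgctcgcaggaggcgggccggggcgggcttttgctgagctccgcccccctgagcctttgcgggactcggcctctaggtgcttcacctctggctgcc
All 9 members had a window in RefSeq's promoter table, 12 windows in all, each holding 250 bases before and 50 after a start site. Both strands were searched for 4 motifs. TNAAGGTCA, an extended site for estrogen-related receptors, was in none of the members' windows and in 1.28% of all 32851 windows of the genome. AGGTCA, the nuclear receptor half-site that TNAAGGTCA contains, was in 1 member (Mpc1) and in 16.3% of all windows. ACGTG, a form of the core of hypoxia response elements, was in 3 members (Pdk2, Pdp2 and Pdhb) and in 19.6% of all windows. In Pdk2 and Pdp2 it stood as the palindrome CACGTG. The other form of that core, GCGTG, was not searched for, so a window without ACGTG can still hold the core. TGACGTCA, the cAMP response element, was in no member and in 1.79% of all windows. The Pdk4 window held none of the 4.

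The 4 comparisons were read from a single quasi-likelihood model of the counts, together with the interaction of genotype and temperature, and a gene was called when its p-value, adjusted over the 12485 tested genes by the Benjamini-Hochberg method, was below 0.1. In Cre- mice, 6 of the 9 members were higher at 8°C than at 30°C and none was lower, where 5.57% of all tested genes were higher and 9.15% differed in either direction. In BATdKO mice, 3 of the 9 were higher at 8°C and none was lower, beside 3.76% of all genes higher and 7.07% in either direction. Between the labels at 8°C, 1 of the 9 was lower in BATdKO mice, beside 1.12% of all genes lower and 1.82% in either direction. No member passed between the labels at 30°C, where edgeR called 0% of all genes. At an unadjusted p under 0.05 there were 2 members and 1303 genes, and DESeq2 called 0 members and 90 genes. No member passed for the interaction either (0.0961% of all genes), with 2 members and 1005 genes at an unadjusted p under 0.05, and 0 members and 51 genes called by DESeq2. The median log2 fold change of the 9 members was 0.79 for cold in Cre- mice, beside -0.02 over all tested genes, and 0.19 for cold in BATdKO mice, beside -0.0026. For the labels at 8°C it was -0.29, beside -0.0001. The comparisons share groups, so that their values are not independent of each other. In whole tissue, fewer cells of a type and less RNA per cell cannot be told apart.

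Leaving out both m6 libraries at 30°C changed the call of Pdk4 alone among the members, between the labels at 30°C and for the interaction. For cold in Cre- mice, 6 members were again higher (beside 7.55% of all genes), and apart from Pdk4 their log2 fold changes were 0.37 for Pdp2, 0.66 for Pdha1, 0.94 for Pdhb, 0.81 for Dlat and 1.16 for Mpc2, each with an adjusted p of at most 0.0257. For cold in BATdKO mice, 3 members were again higher (beside 3.09%), Pdp2 by 0.66, Pdhb by 0.66 and Mpc2 by 0.84, each with an adjusted p of at most 0.0162. At 8°C, Pdk1 was again the member that was lower under the BATdKO label (-0.50 ± 0.11, adjusted p = 0.015, beside 1.52% of all genes). Between the labels at 30°C, Pdk1 was at -0.36 ± 0.12 (adjusted p = 0.145), and the members other than Pdk1 and Pdk4 had adjusted p of 0.645 or more.

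**Figure D1:**
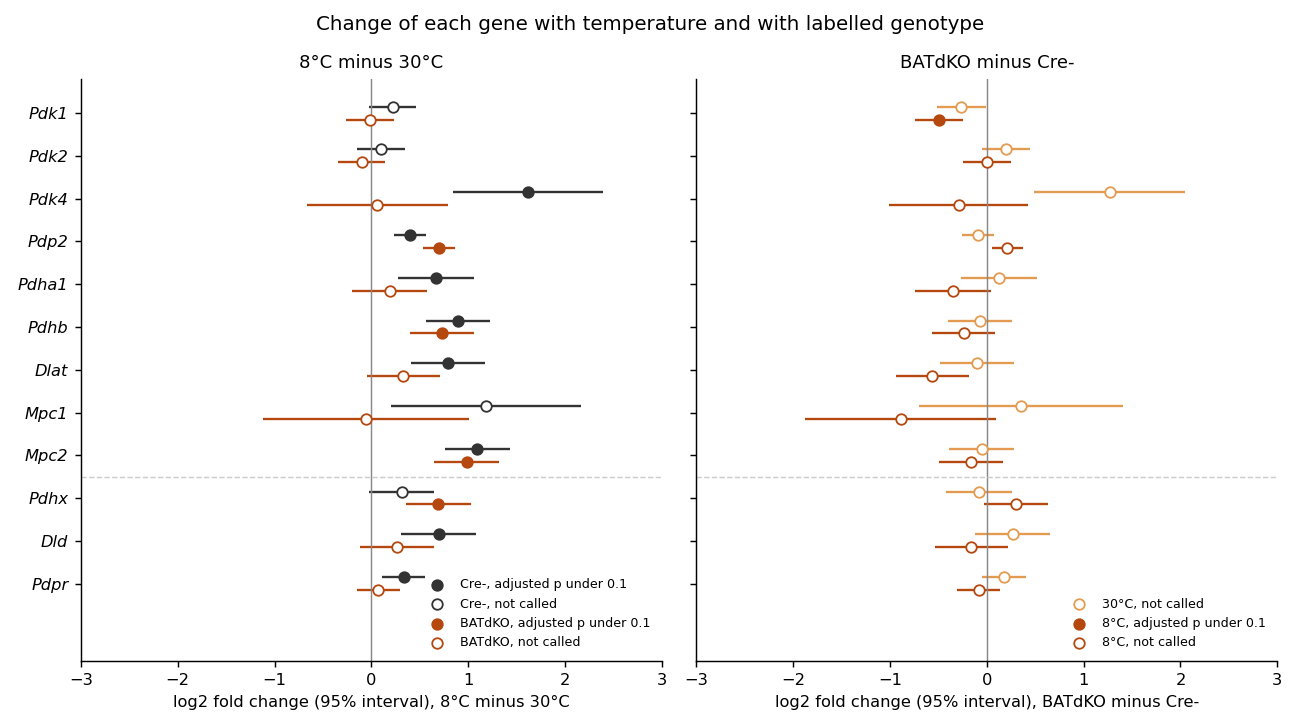
Log2 fold changes (x axis) of the 9 members and, below the dashed line, of 3 further genes of the complex, with 95% intervals as lines. The left panel shows 8°C minus 30°C in Cre- and BATdKO mice, the right panel BATdKO minus Cre- at 30°C and 8°C, and filled points passed an adjusted p of 0.1. Pdp2, Pdhb and Mpc2 lie to the right of 0 under both labels in the left panel, and Pdk1 at 8°C is the only filled point of the right panel.

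Pdk4 was the only measured kinase called higher in the cold, and this was so in Cre- mice. Pdk4, on chromosome 6 from 5483351 to 5496309 on the minus strand of GRCm38, had 3.11 to 27.2 CPM in Cre- mice at 30°C (median 9.83) and 15.5 to 55.4 CPM in Cre- mice at 8°C (median 37.1). The difference was 3.08-fold (log2 1.62 ± 0.38 SE, adjusted p = 0.00766, n = 6 per group). A single mouse, Cre- 30°C m6, made the groups overlap: the other 5 Cre- mice at 30°C had at most 12.3 CPM, below every Cre- mouse at 8°C. Without both m6 libraries the difference was 4.57-fold (2.19 ± 0.36, adjusted p = 0.000167). Cre- 30°C m3, with 3.11 CPM, was the lowest of all 24 mice.

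Under the BATdKO label no change of Pdk4 with cold was detected. It had 13.6 to 38.9 CPM at 30°C (median 29.3) and 18.4 to 48.4 CPM at 8°C (median 25.6), and these groups overlapped over most of their range. The ratio of 8°C to 30°C was 1.04 with a 95% interval from 0.629 to 1.73 (log2 0.06 ± 0.36, adjusted p = 0.981). No difference of Pdk4 between the labels at 8°C was detected either (log2 -0.29 ± 0.35, adjusted p = 0.897), with an interval of the ratio from 0.496 to 1.35.

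At 30°C the fitted level of Pdk4 was 2.41 times as high under the BATdKO label, which did not pass the threshold (log2 1.27 ± 0.38, adjusted p = 0.202). This call depended on Cre- 30°C m6, whose 27.2 CPM lay inside the BATdKO range. Without both m6 libraries Pdk4 was 3.51-fold higher (1.81 ± 0.37, adjusted p = 0.00711), and all 5 BATdKO mice, with 13.6 to 38.9 CPM, were above all 5 Cre- mice, with 3.11 to 12.3 CPM. Groups that did not overlap in that direction were found for 2.02% of all genes, and 4% of the genes tested without both libraries were called in either direction. Leaving out Cre- 30°C m6 alone gave 1.85 ± 0.36 (adjusted p = 0.0106). The brown adipocyte markers, 0.0899 to 0.285% of counts in those 5 Cre- mice and 0.261 to 0.458% in those 5 BATdKO mice, differed in the same direction, and their part in the Pdk4 value was not tested. The libraries left out had been set apart by these markers, so the marker difference follows in part from that choice.

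Pdk4 passed for cold under the Cre- label and not under the BATdKO label, and the interaction tests whether these cold responses differed. It was -1.56 ± 0.52 on the log2 scale (unadjusted p = 0.00545, adjusted p = 0.391) and did not pass the threshold with all mice. Without both m6 libraries it was -2.12 ± 0.48 (adjusted p = 0.0602), past the threshold, where 0.352% of all genes were called. Without Cre- 30°C m6 alone it was -2.14 ± 0.47 (adjusted p = 0.06). Whether Pdk4 responded differently under the 2 labels thus rested on whether that library was included.

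**Figure D2:**
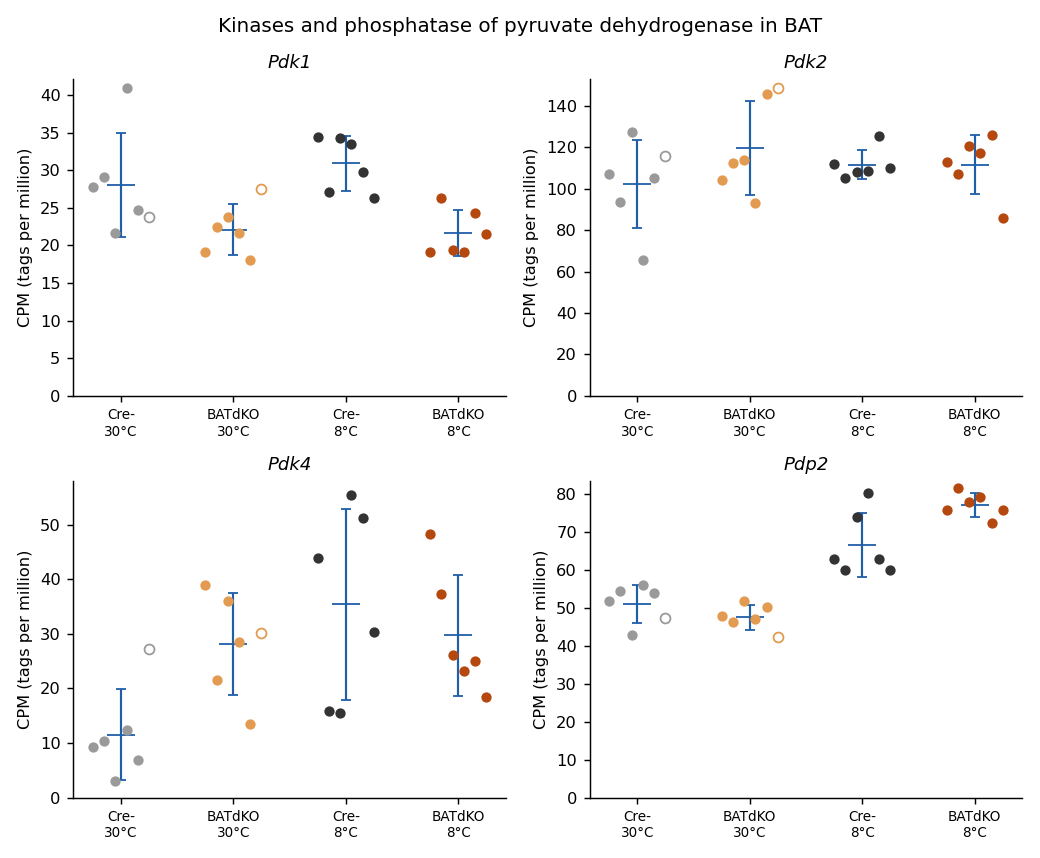
Level of the 3 measured kinases and the phosphatase Pdp2 in each mouse (y axis, CPM normalized by TMM), by labelled group (x axis, 6 mice each). Points are mice, open points are the m6 mice at 30°C, and blue bars are means with SD. Pdk4 sits at 3.11 to 12.3 CPM in 5 of the 6 Cre- mice at 30°C, and Pdp2 lies at 59.9 to 81.5 CPM in all 12 mice at 8°C, above all 12 mice at 30°C.

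Pdk1 was the only member called between the labels at 8°C. At an unadjusted p under 0.05 there were 3 members and 1153 genes by the same quasi-likelihood test. PDK1 is the isoform of the kinase best known as a target of hypoxia-inducible factor. Pdk1, on chromosome 2 from 71873224 to 71903858 on the plus strand, had 26.3 to 34.4 CPM in Cre- mice at 8°C (median 31.7) and 19.2 to 26.4 CPM in BATdKO mice at 8°C (median 20.5). The lowest Cre- mouse and the highest BATdKO mouse met at 26.3 and 26.4 CPM, so that the groups overlapped only there. The level was 0.709-fold (log2 -0.50 ± 0.12, adjusted p = 0.0359, n = 6 per group). At 8°C no member had groups that did not overlap, beside 1.95% of all genes. Leaving out each mouse in turn moved the log2 fold change between -0.57 and -0.46, and the adjusted p reached at most 0.0976.

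No change of Pdk1 with cold was detected under either label. At 30°C it had 21.6 to 41.0 CPM in Cre- mice and 18.1 to 27.5 CPM in BATdKO mice, and the highest value was that of the shallowest library, Cre- m4, which had 30 counts. The 95% interval of its cold-to-warm ratio was 0.982 to 1.38 for Cre- and 0.832 to 1.18 for BATdKO mice. The difference between the labels at 30°C had the same sign as at 8°C and did not pass (log2 -0.26 ± 0.12, adjusted p = 0.443). No difference between the label effects at the 2 temperatures was shown (interaction -0.23 ± 0.17, adjusted p = 0.758).

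Pdk2, the most widely expressed of the kinases, was the most abundant of the 3 in all 24 mice and passed the threshold in no comparison. Pdk2, on chromosome 11 from 95026258 to 95041354 on the minus strand, had group medians of 106, 113, 109 and 115 CPM (Cre- 30°C, BATdKO 30°C, Cre- 8°C and BATdKO 8°C). Its 95% intervals were narrow beside those of Pdk4: the cold-to-warm ratio lay between 0.900 and 1.27 in Cre- mice and between 0.786 and 1.11 in BATdKO mice. The BATdKO to Cre- ratio lay between 0.843 and 1.19 at 8°C and between 0.965 and 1.36 at 30°C.

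The make-up of the kinase tags shows the same data within each mouse, as a share that does not depend on the scaling between libraries. Since the kit makes 1 tag per transcript, no correction for length was made. How fully the tags of each gene were counted was not tested, so levels of different genes can be compared only as tags counted. Pdk4 made up 2.04 to 16.3% of the Pdk1, Pdk2 and Pdk4 tags in Cre- mice at 30°C (median 7.12%) and 9.83 to 28.0% in Cre- mice at 8°C (median 20.6%). Its share was 7.64 to 23.9% at 30°C (median 17.2%) and 14.2 to 26.8% at 8°C (median 15.2%) in BATdKO mice. Without the m6 library the upper end in Cre- mice at 30°C was 10.3%. Pdk1 made up 14.4 to 21.7% in Cre- mice at 8°C and 10.6 to 17.1% in BATdKO mice at 8°C. Pdk2 held the rest, with group medians between 63.4 and 72.3%.

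**Figure D3:**
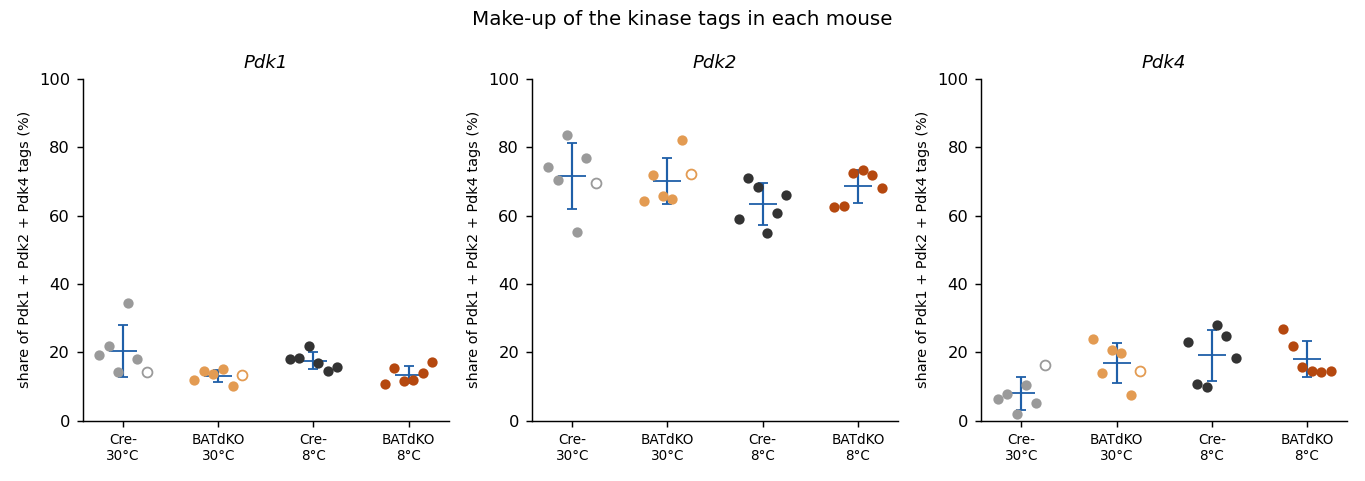
Share of each kinase (y axis, percent) among the summed Pdk1, Pdk2 and Pdk4 tags of a mouse, by labelled group (x axis, 6 mice each). Points are mice, open points are the m6 mice at 30°C, and blue bars are means with SD. Pdk2 holds the largest share in all mice, and the Pdk4 share is lowest in Cre- mice at 30°C (median 7.12%).

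Pdp2, a catalytic subunit of the phosphatase that reactivates PDH, was higher in the cold under both labels. Pdp2, on chromosome 8 from 104591451 to 104599026 on the plus strand, had 43.0 to 56.0 CPM in Cre- mice at 30°C (median 52.9) and 59.9 to 80.2 CPM at 8°C (median 62.9). The BATdKO mice had 42.2 to 51.7 CPM at 30°C (median 47.5) and 72.4 to 81.5 CPM at 8°C (median 76.8). All cold mice were above all warm mice under each label. The difference was 1.32-fold in Cre- mice (log2 0.40 ± 0.08, adjusted p = 0.00211) and 1.62-fold in BATdKO mice (0.70 ± 0.08, adjusted p = 2.4e-06). The larger difference under the BATdKO label was not shown to differ from that in Cre- mice (interaction 0.30 ± 0.11, unadjusted p = 0.0117, adjusted p = 0.485). At 8°C the BATdKO to Cre- ratio was 1.16 with a 95% interval from 1.04 to 1.29, and it did not pass the adjusted threshold (adjusted p = 0.278).

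Cold groups that lay wholly above the warm groups were found for 3 members in Cre- mice (Pdp2, Pdhb and Mpc2), beside 2.19% of all genes, and for 2 members in BATdKO mice (Pdp2 and Mpc2), beside 1.75% of all genes. Per tag of the 3 kinases, 0.282 to 0.471 tags of Pdp2 were counted in warm Cre- mice and 0.204 to 0.329 in warm BATdKO mice. The same ratio was 0.305 to 0.468 in cold Cre- mice and 0.413 to 0.603 in cold BATdKO mice. Its ranges overlapped between the Cre- groups and not between the BATdKO groups. How often ratios of other genes separate in this way was not counted, and a difference between the labels in this ratio was not tested. The ratio also moves with the kinase tags, and the interaction of Pdp2 itself did not pass.

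The genes of the catalytic core rose with cold in Cre- mice, all 3 of them past the threshold. Pdhb, which encodes the E1 beta subunit (chromosome 14 from 8165996 to 8173025, minus strand), had 82.8 to 175 CPM in Cre- mice at 30°C (median 163) and 204 to 340 CPM at 8°C (median 266). The groups did not overlap, and the difference was 1.86-fold (log2 0.90 ± 0.16, adjusted p = 0.000513). Its BATdKO values were 109 to 185 CPM at 30°C (median 132) and 184 to 292 CPM at 8°C (median 233), a 1.66-fold difference (0.73 ± 0.16, adjusted p = 0.00608). Here the groups touched, because the highest warm mouse, m1 with 185 CPM, was just above the lowest cold mouse, m5 with 184 CPM.

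Pdha1 and Dlat rose with cold in Cre- mice and did not pass in BATdKO mice. Pdha1, the X-linked gene of the E1 alpha subunit that the kinases phosphorylate (chromosome X from 160122209 to 160138413, minus strand), had 71.2 to 152 CPM in Cre- mice at 30°C (median 109) and 130 to 203 CPM at 8°C (median 179). The difference was 1.59-fold (log2 0.67 ± 0.19, adjusted p = 0.0333), with an overlap of the highest warm and the lowest cold mice. The BATdKO mice had 86.3 to 176 CPM at 30°C and 68.7 to 186 CPM at 8°C, ranges that covered each other, and the cold-to-warm ratio was 1.14 (95% interval 0.870 to 1.50, adjusted p = 0.677). Exons of Pdha1 overlap those of Map3k15 on the other strand. Whether reads were counted by strand is not given in the sources used here.

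Dlat, on chromosome 9 from 50634633 to 50659780 on the minus strand, encodes the E2 subunit that carries the lipoyl groups. It had 26.4 to 71.7 CPM in Cre- mice at 30°C (median 60.8) and 61.9 to 114 CPM at 8°C (median 94.0), a 1.73-fold difference (log2 0.79 ± 0.19, adjusted p = 0.00855). BATdKO values of Dlat were 35.2 to 65.7 CPM at 30°C (median 50.5) and 48.1 to 74.0 CPM at 8°C (median 64.9), with a ratio of 1.26 (95% interval 0.966 to 1.64, adjusted p = 0.374). Relative to Cre- mice at 8°C, Dlat was 0.676-fold in BATdKO mice and did not pass the threshold (-0.57 ± 0.18, unadjusted p = 0.00468, adjusted p = 0.168). Of the 6 Cre- mice at 8°C, 5 had 88.3 to 114 CPM, above all 6 BATdKO mice, and m2 had 61.9 CPM. The Dlat difference was called in 3 alternative fits. These were the fit of only the 8°C groups (adjusted p = 0.0127), the fit without Cre- 8°C m2 (0.0777) and the fit without Cre- 30°C m3 (0.0473).

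For none of these 3 genes was a difference between the cold responses under the labels shown. The interaction was -0.48 ± 0.27 for Pdha1 (adjusted p = 0.665), -0.46 ± 0.26 for Dlat (0.666) and -0.17 ± 0.22 for Pdhb (0.899), by edgeR's quasi-likelihood test.

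**Figure D4:**
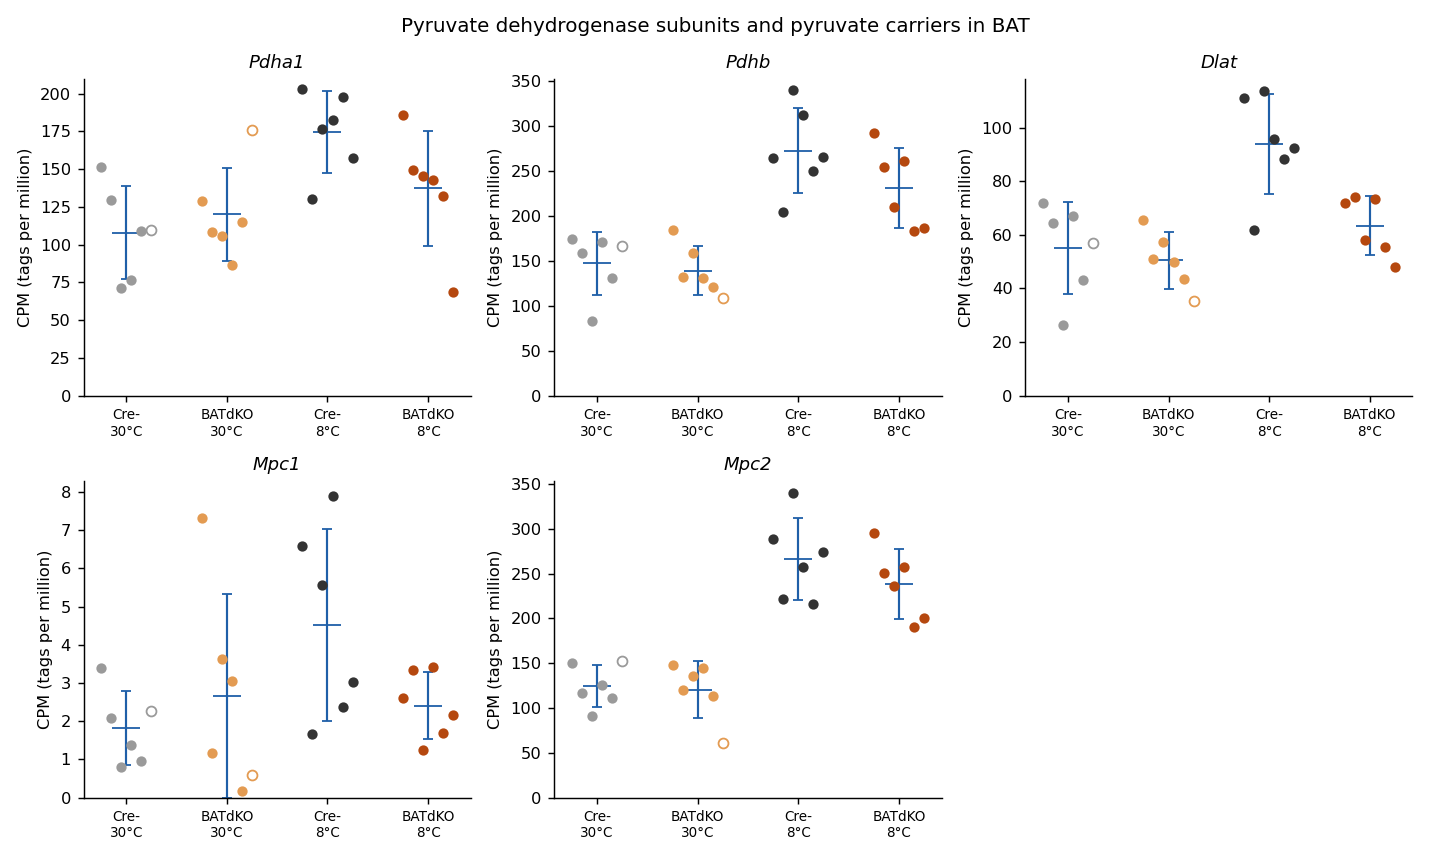
Level of the 3 catalytic subunit genes and the 2 pyruvate carrier genes in each mouse (y axis, CPM normalized by TMM), by labelled group (x axis, 6 mice each). Points are mice, open points are the m6 mice at 30°C, and blue bars are means with SD. Mpc2 lies at 191 to 340 CPM in all 12 cold mice and at 61.1 to 153 CPM in all 12 warm mice, and Mpc1 is below 8 CPM in all 24.

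The pyruvate carrier genes stood at opposite ends of the range. Mpc2, on chromosome 1 from 165460637 to 165481214 on the plus strand, had 90.8 to 153 CPM in Cre- mice at 30°C (median 121) and 216 to 340 CPM at 8°C (median 266). In BATdKO mice it had 61.1 to 148 CPM at 30°C (median 128) and 191 to 296 CPM at 8°C (median 244). Every cold mouse was above every warm mouse under both labels. The difference was 2.13-fold in Cre- mice (log2 1.09 ± 0.16, adjusted p = 6.22e-05) and 1.98-fold in BATdKO mice (0.99 ± 0.16, adjusted p = 0.000365), with no difference between the labels detected (interaction -0.11 ± 0.23, adjusted p = 0.951, ratio of the 2 ratios between 0.669 and 1.29). The lowest warm value, 61.1 CPM, was that of BATdKO 30°C m6.

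Mpc1 was counted in very few tags, 1 to 73 per library, so that its values are imprecise. Mpc1, on chromosome 17 from 8282904 to 8297661 on the plus strand, had 0.811 to 3.38 CPM in Cre- mice at 30°C (median 1.73) and 1.67 to 7.90 CPM at 8°C (median 4.30). The difference was 2.28-fold, with a 95% interval from 1.15 to 4.50 (log2 1.19 ± 0.48, adjusted p = 0.156), and did not pass. It passed in 2 alternative fits, that of only the Cre- groups (1.19 ± 0.39, adjusted p = 0.0945) and that without Cre- 8°C m2 (1.35 ± 0.48, adjusted p = 0.0924). In BATdKO mice it had 0.169 to 7.32 CPM at 30°C and 1.25 to 3.41 CPM at 8°C (log2 -0.05 ± 0.52, adjusted p = 0.993). The warm BATdKO range covered the cold one, and at 1 count in 2 libraries (Cre- 30°C m4 and BATdKO 30°C m5) neither a rise nor its absence was detectable at this depth. Exons of Mpc1 overlap those of 4930506C21Rik on the other strand, and the pseudogene Mpc1-ps could share its reads. Per library, 20.1 to 671 tags of Mpc2 were counted for each tag of Mpc1 (median 90.9), although the proteins act as a pair. How fully the tags of either gene were counted was not tested.

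By median CPM, Pdhb, Mpc2, Pdha1 and Pdk2 were the 4 most abundant members in all 4 groups and Mpc1 the least abundant. Pdhb and Mpc2 exchanged places, with Pdhb first at 30°C and Mpc2 first at 8°C, but their ranges overlapped in every group. The ranges of Pdk1 and Pdk4 overlapped in all 4 groups as well, in Cre- mice at 30°C through m6 alone: the other 5 mice there had Pdk4 at or below 12.3 CPM and Pdk1 at 21.6 CPM or more.

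Of the 4 other genes of the complex and its phosphatase that were listed, 3 were in the table. Dld, the E3 subunit shared with related dehydrogenases, was higher at 8°C in Cre- mice (log2 0.70 ± 0.19, adjusted p = 0.0228), with 30.9 to 81.3 CPM at 30°C and 68.7 to 110 CPM at 8°C. Pdpr, the regulatory subunit of the phosphatase, was also higher there (0.33 ± 0.11, adjusted p = 0.0675). Pdhx, the E3-binding protein, was higher at 8°C in BATdKO mice (0.69 ± 0.16, adjusted p = 0.0115) with 18.3 to 43.2 CPM at 30°C and 41.9 to 54.6 CPM at 8°C, and gave 0.31 ± 0.16 in Cre- mice (adjusted p = 0.318). Under the other label, Dld and Pdpr gave 0.27 ± 0.19 and 0.07 ± 0.11 (adjusted p = 0.498 and 0.802), and none of the 3 passed for the interaction.

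Of 13 tested genes that make, use or export pyruvate, 6 were higher at 8°C in Cre- mice and 1 was lower, and 6 were higher in BATdKO mice. Their medians were 0.03 and 0.24 beside -0.02 and -0.0026 over all genes. Of all tested genes, 5.57% were higher at 8°C in Cre- mice and 3.76% in BATdKO mice, and these shares stand beside the cold counts of each list below as well. The lists were chosen with earlier results of these data known. In Cre- mice the called genes led by p were Me1, the malic enzyme that yields pyruvate and NADPH (1.02), Bsg, the chaperone of monocarboxylate transporters (0.85), Slc16a1, a lactate and pyruvate transporter (1.16), and Pkm, the pyruvate kinase gene (1.05). Pcx, pyruvate carboxylase, was lower (-0.18). In BATdKO mice they were Bsg (1.13), Pkm (1.28) and both lactate dehydrogenase genes, Ldha (0.59) and Ldhb (1.15). All values are log2 fold changes of 8°C over 30°C, and with all mice none of the 13 passed between the labels at either temperature. Without both m6 libraries, Me3, a mitochondrial malic enzyme, was lower in BATdKO mice at 8°C and at 30°C (-0.84 and -0.83, adjusted p = 0.0679 and 0.054), Bsg was higher at 8°C (0.34, adjusted p = 0.0798) and Slc16a1 was higher at 30°C (0.56, adjusted p = 0.0973).

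Among 8 tested genes of related dehydrogenase complexes, 3 were higher at 8°C in Cre- mice: Dbt, the E2 of the branched-chain complex (0.66), and Dlst and Ogdh of the 2-oxoglutarate complex (0.66 and 0.51). In BATdKO mice Dbt alone passed (0.33). Between the labels at 8°C, Bckdk, the kinase of the branched-chain complex and a relative of the Pdk genes, was lower in BATdKO mice (-0.43 ± 0.12, adjusted p = 0.0853), as was Dbt (-0.31 ± 0.09, adjusted p = 0.0862). Beside these 2 of 8, 1.12% of all genes were lower. Of 11 tested genes for the lipoate and thiamine cofactors, 3 were higher at 8°C in Cre- mice (Oxsm 0.46, Glrx5 0.20 and Mecr 0.41) and 1 in BATdKO mice (Lipt1 0.41). Without both m6 libraries, Lipt1 also passed for cold in Cre- mice (0.52), Lias, the lipoate synthase gene, was higher in BATdKO mice at 8°C (0.27) and at 30°C (0.31), Mecr was lower at 8°C (-0.44) and Bckdhb, the E1 beta gene of the branched-chain complex, was lower at 30°C (-0.29).

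Factors known to act on Pdk genes were called in 5 of 15 cases for cold in Cre- mice and in 2 of 15 for cold in BATdKO mice, all higher. Ppargc1a, a coactivator of nuclear receptors, was higher by 1.27 and 0.95 (log2), and Epas1, the gene of HIF-2 alpha, by 0.52 and 0.91. Hif1a (0.46) and Ppargc1b (0.49) passed in Cre- mice. Foxo1, a forkhead factor that acts on Pdk4, was higher in BATdKO than in Cre- mice at 8°C (0.42 ± 0.09, adjusted p = 0.0127), as was Epas1 (0.41 ± 0.11, adjusted p = 0.0706). Beside these 2 of 15, 87 of all 12485 tested genes were higher. Without both m6 libraries, Esrrg, an estrogen-related receptor gene, was higher in BATdKO mice at 8°C as well (0.62), and Ppargc1a (0.58) and Nr3c1, the glucocorticoid receptor gene (0.59), were higher at 30°C.

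Hypoxia response genes often measured with Pdk1 were higher at 8°C in 7 of 9 tested cases in Cre- mice and in 4 of 9 in BATdKO mice, with medians of 0.47 and 0.59. They were led in Cre- mice by Egln1 (1.40), Egln3 (0.93), P4ha1 (0.95) and Pgk1 (0.37), and in BATdKO mice by Egln3 (1.29), Pgk1 (0.59), Aldoa (0.94) and Egln1 (0.84). Pdk1 itself gave 0.22 and -0.02 for the same comparisons. None of the 9 was called between the labels at 8°C, where Pdk1 was lower. Vegfa passed without both m6 libraries, for cold in Cre- mice (0.74) and between the labels at 30°C (0.82, higher in BATdKO mice).

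PPAR target genes often measured with Pdk4 were higher at 8°C in 6 of 11 tested cases and lower in 1, under each label, with medians of 0.64 and 0.47. Slc25a20, the carnitine-acylcarnitine carrier, gave 1.06 in Cre- and 0.98 in BATdKO mice, and Hadha, of mitochondrial fatty acid oxidation, 0.76 and 0.48. Acadm (0.96) and Ucp3 (1.79) were also among the leading genes in Cre- mice, and Fabp3 (2.46) and Plin2 (0.47) in BATdKO mice. Angptl4, an inhibitor of lipoprotein lipase, was lower at 8°C under both labels (-1.28 and -0.67). At 8°C, 2 of 11 were higher in BATdKO than in Cre- mice, Angptl4 (0.76 ± 0.19, adjusted p = 0.0434) and Fabp3 (1.42 ± 0.36, adjusted p = 0.0472), while Pdk4 gave -0.29. Of all 12485 tested genes, 87 were higher in this comparison. Without both m6 libraries, Ucp3 (1.85) and Plin2 (0.35) were higher in BATdKO mice at 30°C, as Pdk4 was, Fabp3 passed for cold in Cre- mice (1.11), and Ucp3 passed for the interaction (-1.65 ± 0.39, adjusted p = 0.0787).

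Within groups, the members did not vary together as a whole. After the group means were removed, Pearson's r of log2 CPM over the 24 mice was 0.94 between Pdhb and Dlat (Spearman's rho 0.88, and 0.90 without the 2 mice farthest from the median of Pdhb). Between Mpc2 and both Pdhb and Dlat it was 0.77 and 0.76. Pdk2 ran against most of the others, with r of -0.375 with Pdhb, -0.402 with Dlat and -0.435 with Pdk1. Without the 2 mice farthest from the median of Pdk2 these were -0.495, -0.522 and -0.161. Pdha1 gave 0.44 with Pdhb, its partner in the E1 heterotetramer, and 0.49 with Pdk2. Its r with Pdhb fell to 0.194 without the 2 mice farthest from the median of Pdha1. With Pdk2 it was 0.6 without those mice, and 0.209 without the 2 farthest from the median of Pdk2. These are descriptions over mice that share depth and scaling, and they carry no p.

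The genes whose pattern over the mice was most like that of each member were found by the same r. For Mpc2 they were Sod2, Timm23 and Uqcrb (r 0.96, 0.95 and 0.95), and for Pdhb they were Dlat, Dhrs7 and Ogdh (0.94, 0.93 and 0.93). For Dlat they were Pdhb, Eno1 and Eno1b (0.94, 0.93 and 0.93). For Pdk4 they were Acyp2, Immt and Cd36 (0.92, 0.91 and 0.91, with rho 0.93, 0.92 and 0.89), and for Pdk2 they were Ctsd, Tcn2 and Dkc1 (0.93, 0.89 and 0.89). Pdha1 was closest to Pfkp, Vegfb and Uqcrh (0.88, 0.87 and 0.87), and Pdp2 to Gbe1, Dctn3 and Sod3 (0.80, 0.78 and 0.71). Pdk1, with Ube2v2, Mlph and Mipol1 (0.79, 0.77 and 0.77), fell to 0.65, 0.69 and 0.64 without its 2 farthest mice. For Mpc1 the values were 0.84, 0.83 and 0.82 (Smim11, Hacd2 and Gm12922).

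Single mice carried several extremes at once. Cre- 30°C m3 was the lowest of its group for 8 of the 9 members and the highest for Pdk2, and it also had the lowest Ucp1 of all mice (28.9 CPM). It held the lowest share of brown adipocyte markers (0.0899%) and the highest share of skeletal muscle markers (1.00%) among all libraries. Cre- 8°C m2 was the lowest of its group for 6 members. Without Cre- 30°C m3, or any other single mouse, all 6 cold calls in Cre- mice and all 3 in BATdKO mice held, with a highest adjusted p of 0.0954 (Pdha1).

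Markers of cell types moved with temperature beside the members. All 12 brown adipocyte markers were in the table, and their sum was 0.0899 to 0.466% of counts in Cre- mice at 30°C and 0.298 to 0.522% in Cre- mice at 8°C. In BATdKO mice it was 0.151 to 0.458% at 30°C and 0.328 to 0.546% at 8°C. For cold, 6 of the 12 were higher and 1 was lower under each label, the lower being Adipoq. Only Adrb3 passed between the labels at 8°C (lower, log2 -0.98 ± 0.26, adjusted p = 0.0592), beside 1.12% of all genes lower. The 4 measured haemoglobin genes were higher at 8°C under both labels, with sums of 0.346 to 0.523% of counts over the warm mice and 0.416 to 0.575% over the cold mice. Of 5 endothelial markers, 3 were higher with cold in Cre- mice (Kdr, Pecam1 and Emcn) and 2 in BATdKO mice (Emcn and Kdr). Of the 2 measured white adipocyte markers, Lep was lower with cold under both labels, and none of 7 macrophage markers passed in any comparison. Of 15 measured muscle fibre markers, Actn3 and Myoz1 were lower with cold in Cre- mice, and the sum was 0.000422 to 0.159% in Cre- mice and 0.000295 to 0.0155% in BATdKO mice at 8°C. Without both m6 libraries, 7 of the 12 brown adipocyte markers were higher and 9 of the 15 muscle markers were lower in BATdKO than in Cre- mice at 30°C, where none passed with all mice, and 2 muscle markers (Atp2a1 and Myh2) were lower at 8°C. For cold in Cre- mice, 10 brown adipocyte markers were then higher and 8 muscle markers lower, and for cold in BATdKO mice 6 brown adipocyte markers were higher and 2 lower (Adipoq and Cidea). For the interaction Ucp1 and Cidea then passed (-1.55 and -1.48). Both m6 libraries had been set apart by Ucp1 and the sum of this brown adipocyte list. The changed calls of its markers therefore follow in part from that choice and are no separate evidence. Of all genes tested without both libraries, 4% were called between the labels at 30°C. With cold, 7.55% were higher in Cre- mice and 3.09% in BATdKO mice. Counts of the other 5 lists did not change. No marker of these 7 lists that was in the table was at 0 in all mice of a group. The part of these cell types in the members' values was not tested.

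**Figure D5:**
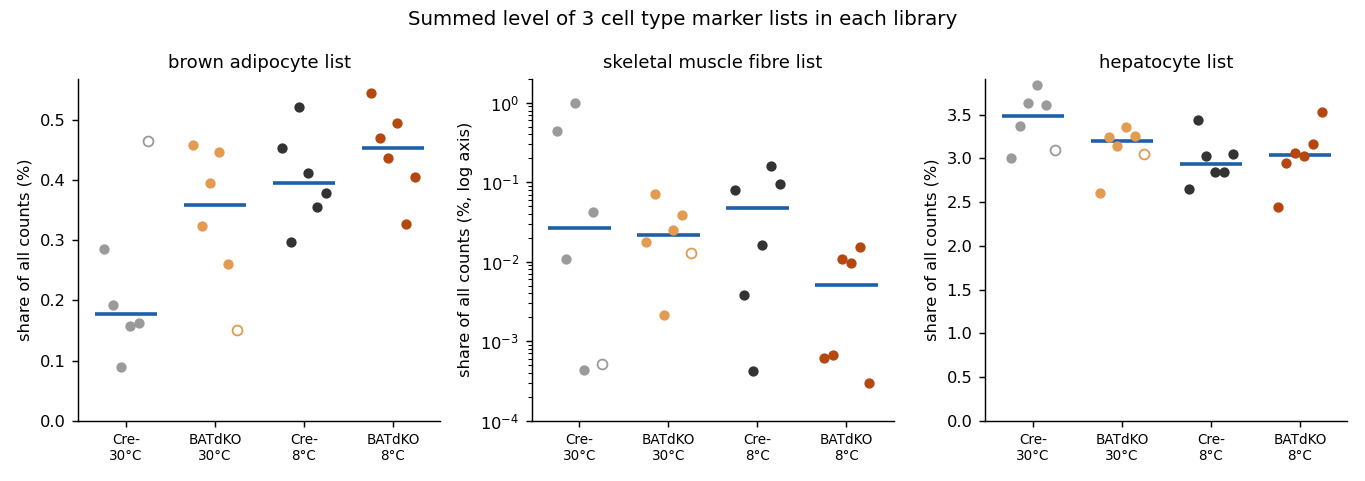
Summed share of 3 marker lists (y axis, percent of all counts, on a log axis for the muscle list) in each library, by labelled group (x axis, 6 mice each). Points are libraries, open points are the m6 mice at 30°C, and blue lines are medians. The brown adipocyte share is lowest in Cre- mice at 30°C (median 0.177%), with m6 of that group at 0.466%, and the hepatocyte share lies between 2.44 and 3.84% in all 24 libraries.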

How the data were processed

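Libraries of 24 BAT samples came from a 3′ tag kit, with 1 tag for each transcript. The deposited values are raw counts for 12615 genes (12608 matched to a symbol), which the authors obtained with BBDuk for trimming, STAR for alignment of forward reads to GRCm38, and Rsubread for counting. The study removed outliers after quality control, and the legend of its sequencing figure gives fewer mice per group than were used here. All 24 libraries were used here. The annotation release and the strand setting are not given in the sources used here, and reads may be shared between near-identical genes.

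The counts were tested with edgeR 4.0.16 (R 4.3.3, limma 3.58.1). Genes were filtered by filterByExpr (12485 kept, 130 removed), scaled by TMM and fitted over all 24 libraries, 1 mean per group, by the quasi-likelihood test. Adjustment was by Benjamini-Hochberg across every tested gene, and the threshold was the study's 0.1. Each SE was obtained from the F statistic and the log2 fold change. CPM are counts per 1 M counts on TMM-scaled library sizes, and log2 CPM for correlations used a prior count of 2. Both the edgeR and the DESeq2 steps were checked on simulated data.

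Groups came from the genotype and treatment labels. The members and the gene and marker lists were chosen with earlier results of these data known. Named genes are all members, Pdhx, Dld and Pdpr, both deleted genes, Ucp1, per list, comparison and direction at most the 4 called genes with the smallest p, the called cell type markers, and the 3 genes most like each member. Alb and the genes whose call changed without both m6 mice were named after their values were seen. Alternatives were DESeq2 1.42.0, RLE normalization, no filter, a mean count of at least 10, robust dispersion, only the groups of a comparison, a threshold of 0.05, leaving out each mouse, and leaving out both m6 mice at 30°C. Depth was 0.700 to 11.5 M counts per library, which limits Mpc1 most. Positions are from GENCODE vM21 (GRCm38). Mice of the single deletion are not analysed here. Each mouse is 1 library.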

Additional observations from a re-analysis of the deposited data

Results flagged for a closer look

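For each of the 9 members in each of the 4 groups, the mouse farthest from the other 5 was examined on the log2 scale by its gap to the nearest mouse over the whole range of the group, 36 groups in all. The gap passed Dixon's 95% critical value in 3 of them, where chance passes about 1 in 20. Pdk2 in Cre- 8°C m5 was the highest of its group at 125 CPM. Pdha1 in BATdKO 8°C m6 was the lowest of its group at 68.7 CPM. Mpc2 in BATdKO 30°C m6 was the lowest of its group at 61.1 CPM, and this is 1 of the libraries that also stood apart for Ucp1 and the brown adipocyte markers. No member passed the threshold for the interaction of genotype and temperature with all 24 mice.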

How the results depend on the processing

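No paired analysis was possible because the mouse numbers in the labels differ between the groups and pair no mice. Of 1386 recomputed member values (9 members in 5 comparisons under the alternatives), 1344 kept their direction and their side of the threshold, none that had passed was lost, 9 newly passed and 33 changed sign, all of the last in comparisons where the member had not passed.

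The number of members called between the labels at 8°C rose from 1 to 2 in the fit of only those groups, and lay between 1 and 2 over the fits without 1 mouse each. At 30°C, and for the interaction, it rose from 0 to 1 (Pdk4) without both m6 libraries, and lay between 0 and 1 over the fits without 1 mouse each. For cold in Cre- mice it rose from 6 to 7 (Mpc1) in the fit of only those groups and without Cre- 8°C m2. The cause was not tested.

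The number of all genes called between the labels at 8°C was 227, against 477 in the fit of only those groups and 140 at the 0.05 threshold, and between 138 and 276 without 1 mouse each. At 30°C it was 0, against 90 with DESeq2 and 500 without both m6 libraries, and between 0 and 369 without 1 mouse each. For the interaction it was 12, against 51 with DESeq2, 21 with robust dispersion and 44 without both m6 libraries and 7 at the 0.05 threshold, and between 7 and 37 without 1 mouse each. For cold it was 1143 in Cre- and 883 in BATdKO mice, against 757 and 543 at the 0.05 threshold, and without 1 mouse each it lay between 791 and 1343 and between 574 and 1069.

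The following values changed sign. Pdk2 between the labels at 8°C was 0.0010 with RLE, 0.0008 with DESeq2 and 0.0001 with a mean count of at least 10, and -0.0376 to 0.0654 without 1 mouse each. Between the labels at 30°C without both m6 libraries, Pdha1 was -0.0193, Pdhb 0.0301 and Mpc2 0.15. Without 1 mouse each at 30°C, Pdha1 lay between -0.016 and 0.25, Dlat between -0.25 and 0.0076, Mpc1 between -0.19 and 0.68 and Mpc2 between -0.13 and 0.0832. For cold in BATdKO mice, Pdk1 was 0.0509 without both m6 libraries and -0.0866 to 0.05 without 1 mouse each, Pdk4 lay between -0.0925 and 0.17, and Mpc1 between -0.28 and 0.49. Depth limits Mpc1, with 1 to 73 counts per library, and the levels of Cre- 30°C m4, with 0.700 M counts. With 6 mice per group, differences of Pdk4 smaller than its 95% intervals in the report could not be seen.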
